A study of Homo sapiens with 24 samples.

Results

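The comparison concerned how far the 24 h response to R406 differed between MOLM-14 and U937, a pair of human myeloid leukemia cell lines of monocytic type. It was taken as the change in MOLM-14 (R406 minus DMSO) minus the change in U937 (R406 minus DMSO), each on the log2 scale of array intensity plus 1. It used 12 of the 24 arrays of the study, 3 in each of 4 groups: MOLM-14 with 4 µM R406, MOLM-14 with the DMSO vehicle, U937 with 4 µM R406 and U937 with DMSO. All 19724 probe sets with a single gene symbol entered the test, and they stood for 12165 genes. The other 12 arrays were 6 of HL-60 and 6 of KG-1. Each line is 1 cell line, so every other difference between MOLM-14 and U937 goes with the one in FLT3 and the causes cannot be told apart.

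R406 is the active form of the oral drug fostamatinib. It inhibits SYK, a tyrosine kinase that carries signals from receptors with ITAM adaptors, and at higher concentrations it also inhibits other kinases, FLT3 among them. FLT3 is a growth factor receptor of blood progenitors. MOLM-14 carries an internal tandem duplication in FLT3 that keeps the receptor active without its ligand, beside a KMT2A (MLL) fusion, and U937 lacks the duplication. Active FLT3 is known to signal through STAT5, through RAS and ERK, and through PI3K and AKT, which holds FOXO factors out of the nucleus. The probe sets measured total FLT3 transcript and did not show the duplication. The study's title concerns signalling through integrin beta 3 in leukemia.

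In MOLM-14 R406 arrays, FLT3 transcript was abundant and higher than in DMSO arrays, while U937 arrays were near the bottom of the scale. Its intensity was 2240.3, 2336 and 2213 in MOLM-14 R406 arrays against 915, 926 and 902 in MOLM-14 DMSO arrays. The U937 values were 8.58, 14.96 and 11.3 with R406 against 11.1, 16.9 and 13.3 with DMSO. The MOLM-14 groups did not overlap each other or either U937 group, and the U937 groups overlapped. The difference of effects was 1.54 ± 0.23 (SE, adjusted p = 0.000102, limma with Benjamini-Hochberg adjustment over all probe sets, as for every adjusted p below). SYK itself was 272, 291 and 313 in MOLM-14 R406 arrays against 346, 342 and 355 in MOLM-14 DMSO arrays, and 503, 482 and 489.7 in U937 R406 arrays against 482, 495 and 449 in U937 DMSO arrays. SYK fell in MOLM-14 and the difference was -0.30 ± 0.10 (adjusted p = 0.0252). That call was lost after quantile normalization (-0.21, adjusted p = 0.119), with the mean of the gene's probe sets (-0.18, adjusted p = 0.129), and without any one of MOLM-14 DMSO replicate 3, MOLM-14 R406 replicate 1, U937 DMSO replicate 3 or U937 R406 replicate 1.

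The 12 arrays had median intensities of 19.7 to 20.9. A gene whose mean was at or under 11.6, the upper edge of the lowest 33.3% of genes, is called dim here. Of 9 monocytic markers measured, 8 were above that level in MOLM-14 R406 arrays, 5 in MOLM-14 DMSO arrays, 7 in U937 R406 arrays and 6 in U937 DMSO arrays. Their summed intensity was 612 to 625 with R406 against 483 to 511 with DMSO in MOLM-14, and 419 to 482 with R406 against 320 to 334 with DMSO in U937. Of 6 granulocytic markers, 5 were above the dim level in both MOLM-14 groups and 4 in both U937 groups. The granulocytic sum was 4430 to 4783 with R406 against 7229 to 7831 with DMSO in MOLM-14. In U937 that sum was 10503 to 11406 with R406 against 9592 to 9986 with DMSO. CD14, a defining monocyte receptor, lay between 6.18 and 9.28 in every array of both lines. Markers of B cells were nearly all dim, and the T and NK sum came mainly from NKG7. The replicates of MOLM-14 R406 differed from each other more (SD of the log2 difference 0.233 to 0.272) than those of the other 3 groups (0.155 to 0.183). The log2 ratio of the 3′ to the 5′ ACTB control probe set averaged 0.82 ± 0.0088 with R406 against 0.48 ± 0.028 with DMSO in MOLM-14 (SD, n = 3 each, exact permutation test, two-sided, p = 0.1, which is as small as 3 against 3 can give). In U937 the same ratio was 0.45 ± 0.10 with R406 against 0.49 ± 0.078 with DMSO (exact permutation p = 0.6, n = 3 each). For GAPDH the ratio moved less, at -0.14 ± 0.035 with R406 against -0.22 ± 0.027 with DMSO in MOLM-14 (exact permutation p = 0.1, n = 3 each) and -0.17 ± 0.019 with R406 against -0.17 ± 0.065 with DMSO in U937 (exact permutation p = 1, n = 3 each). The part of these ratios, or of the wider replicate spread, in the results was not tested.

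MOLM-14 responded far more widely than U937, and the difference of effects was called (adjusted p under 0.05) for 2578 genes with a higher value in MOLM-14 (21.2% of 12165) and for 2577 with a lower one (21.2%), or 42.4% in either direction. At least a 2-fold difference was present for 641 of the higher and 1001 of the lower genes, or 768 and 913 after quantile normalization. Within MOLM-14, 3623 genes rose (29.8%) and 3019 fell (24.8%). Within U937, 742 rose (6.10%) and 571 fell (4.69%), a split that turned to 593 risen and 742 fallen when each array was centred on its median. Dropping 1 U937 array moved these counts by over 1.5 times: 484, 488 and 479 rose without DMSO replicate 1, R406 replicate 1 and R406 replicate 3, and 350, 344, 368, 334 and 344 fell without DMSO replicates 1 and 3 and R406 replicates 1, 2 and 3. The SD of the effect across genes was 0.78 in MOLM-14 and 0.20 in U937, and the MOLM-14 effect was larger in size for 9670 of the 12165 genes. Before any drug the lines also differed: with DMSO alone 2773 genes were higher (22.8%) and 2915 lower (24.0%) in MOLM-14 than in U937. The median difference of effects over all genes was 0.07. RNA came from whole cultures, so fewer cells of a kind and less RNA per cell cannot be told apart.

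Of the 5155 genes called in either direction, 4056 (78.7%) were called in MOLM-14 and not in U937, 645 (12.5%) in both lines with the same sign, 201 (3.90%) in both with opposite signs, 124 (2.41%) in U937 and not in MOLM-14, and 129 (2.50%) in neither line alone. Among the 645 genes with the same sign, the change was larger in MOLM-14 for 639 and in U937 for 6. Opposite signs comprised 150 genes that fell in MOLM-14 and rose in U937, and 51 that rose in MOLM-14 and fell in U937. These classes rest on the smaller U937 effects and depend on single arrays. The 150 became 96, 99, 96, 97 and 93 without U937 DMSO replicates 2 and 3 and R406 replicates 1, 2 and 3. The 51 became 29, 29, 26, 30, 27 or 29 without any 1 of the 6 U937 arrays. The 645 became 411 without U937 DMSO replicate 1 and 425, 417 and 419 without R406 replicates 1, 2 and 3. The 124 became 80 without U937 DMSO replicate 3 and 81 and 74 without R406 replicates 2 and 3. Of the genes called lower, 5.51% were dim in both U937 groups, and of those called higher 16.9%, against 35.0% of all genes.

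**Figure D1:**
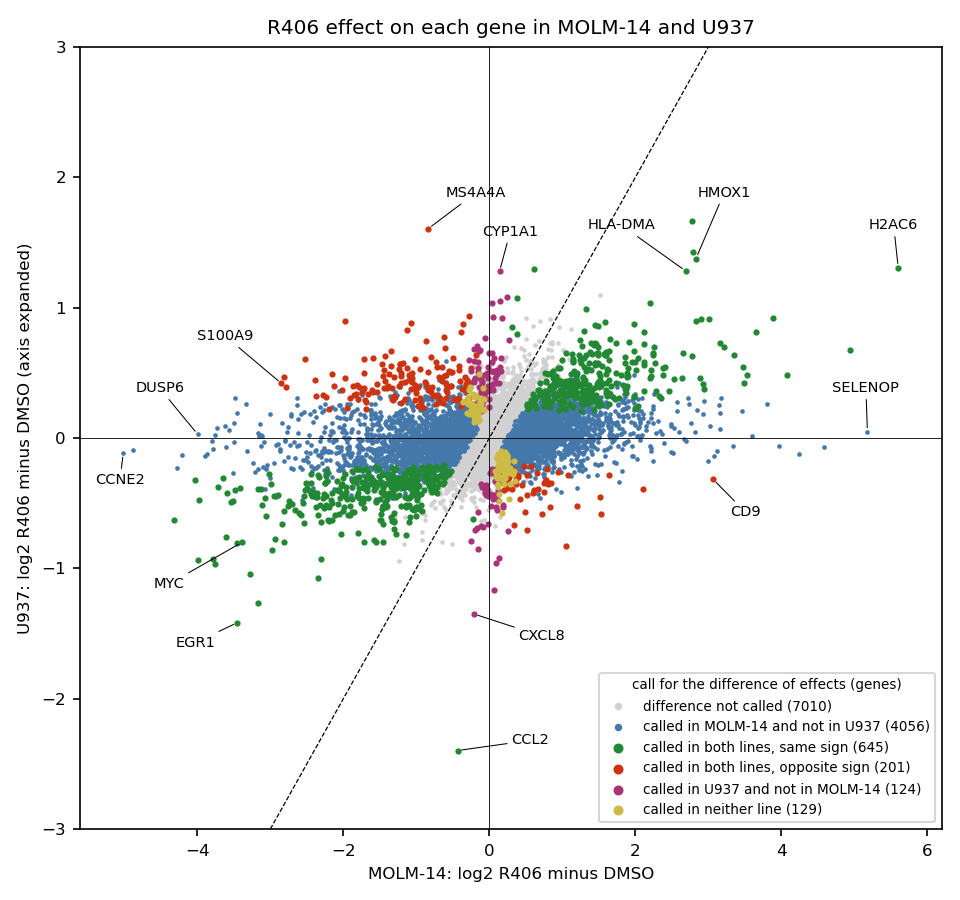
Log2 change with R406 of each of 12165 genes in MOLM-14 (horizontal axis) and in U937 (vertical axis, drawn on an expanded scale), coloured by the call for the difference and by the calls within the lines; the dashed line marks equal effects. Most called genes lie along the horizontal axis, with MOLM-14 effects from about the size of CCNE2 (-5.01) to that of H2AC6 (5.60), while CCL2 (-2.40 in U937) and MS4A4A (1.61 in U937) stand out along the vertical axis.

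The clearest groups were genes of the cell cycle. E2F factors switch on genes for DNA replication, and many of their promoters hold E2F motifs close to the start site. Genes of mitosis peak later in the cycle, and their promoters often hold a CHR element. In both groups only promoters that hold the motif marked are shown here, with 1 match each, so a match in them is not a result. The genes with the lowest differences are not all among them. They are given to let a reader see the letters behind the counts that follow, which cover members with and without a match. Sequences are from RefSeq on GRCh38.p14, 5′ to 3′ on the gene's strand, from 250 bases before to 50 bases after the start. They lie at chr16:85688905-85689204 on the minus strand (GINS2), chr17:40287629-40287928 on the plus strand (CDC6) and chr14:49688165-49688464 on the minus strand (POLE2). For the mitosis genes, chosen after their values were seen, they lie at chr15:69414099-69414398 (KIF23) and chr2:26785806-26786105 (CENPA), both on the plus strand. Capitals mark an E2F match (TTTGGCGC, TTTCCCGC, TTTCGCGC or TTTGCCGC on either strand) in the first 3 and a CHR match (TTTGAA on either strand) in the other two. The CENPA promoter also holds 1 E2F match, left in lower case.
GINS2: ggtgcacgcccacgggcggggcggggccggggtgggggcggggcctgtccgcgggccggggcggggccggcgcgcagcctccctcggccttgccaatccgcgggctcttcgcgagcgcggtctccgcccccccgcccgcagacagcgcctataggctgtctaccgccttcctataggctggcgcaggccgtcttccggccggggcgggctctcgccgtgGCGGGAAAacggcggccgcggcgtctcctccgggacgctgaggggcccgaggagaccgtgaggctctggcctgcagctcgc
CDC6: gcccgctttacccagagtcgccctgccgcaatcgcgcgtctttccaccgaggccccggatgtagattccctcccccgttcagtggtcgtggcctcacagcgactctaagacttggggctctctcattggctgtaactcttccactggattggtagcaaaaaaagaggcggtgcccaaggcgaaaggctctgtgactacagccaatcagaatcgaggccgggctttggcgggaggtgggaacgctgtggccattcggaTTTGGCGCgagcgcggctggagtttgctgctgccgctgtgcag
POLE2: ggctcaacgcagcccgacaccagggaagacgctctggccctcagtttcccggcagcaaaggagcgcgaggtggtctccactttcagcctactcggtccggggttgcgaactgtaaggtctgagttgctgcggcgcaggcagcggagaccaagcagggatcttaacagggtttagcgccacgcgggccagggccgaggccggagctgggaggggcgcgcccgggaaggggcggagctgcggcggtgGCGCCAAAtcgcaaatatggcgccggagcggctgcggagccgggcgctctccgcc
KIF23: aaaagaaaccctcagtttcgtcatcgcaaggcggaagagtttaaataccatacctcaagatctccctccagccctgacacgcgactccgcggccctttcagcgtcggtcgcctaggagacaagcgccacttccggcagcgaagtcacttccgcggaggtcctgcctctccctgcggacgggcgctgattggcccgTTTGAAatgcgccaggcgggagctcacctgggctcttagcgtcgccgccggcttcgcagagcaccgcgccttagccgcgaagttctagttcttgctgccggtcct
CENPA: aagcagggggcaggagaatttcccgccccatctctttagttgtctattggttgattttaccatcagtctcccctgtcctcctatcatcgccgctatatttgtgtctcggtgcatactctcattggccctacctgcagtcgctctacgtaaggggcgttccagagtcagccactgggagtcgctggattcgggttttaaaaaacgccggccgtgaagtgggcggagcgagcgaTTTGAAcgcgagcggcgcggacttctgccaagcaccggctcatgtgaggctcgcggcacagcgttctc

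The E2F letters were in 3.33% of 27305 RefSeq promoters of this length, in 14 of the 25 replication promoters matched by symbol and in 3 of the 19 matched mitosis promoters. TTTGAA was in 15.4% of all promoters, in 0 of the 25 replication promoters and in 13 of the 19 mitosis promoters. CCAAT, which occurs in both kinds of promoter, was in 35.7% of all, in 15 of 25 and in 17 of 19. A match describes the letters in this window and shows no binding. The replication list is named for E2F and mitosis genes are known for CHR elements, so these shares are not a result of these data. The share of all promoters covers every promoter in the reference, and not only those of the genes measured here.

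Replication genes fell in MOLM-14 and, with few exceptions, did not pass the test in U937. Of 28 measured genes of the DNA replication and E2F list, the difference was called lower for 26 and higher for 0, with a median of -2.80 against 0.07 for all genes. All 26 fell in MOLM-14 (median of the 28 members -2.78). In U937, TK1 rose and 2 genes fell, the cyclin gene CCNE1 (-0.38) and the uracil glycosylase gene UNG (-0.28), and the median was 0.04. The rise of TK1 was lost without U937 DMSO replicate 2 (adjusted p = 0.051) and with all 24 arrays in the fit (adjusted p = 0.106). The 2 falls became 1 without any one of MOLM-14 DMSO replicates 2 and 3, U937 DMSO replicates 1 and 3 and U937 R406 replicates 1 and 2, and 0 without U937 R406 replicate 3. CCNE2, a cyclin that activates CDK2 at the entry to S phase, had the lowest difference of all named genes. Its intensity was 8.903, 6.96 and 9.29 in MOLM-14 R406 arrays against 288, 304 and 309 in MOLM-14 DMSO arrays. In U937 it was 267, 253 and 251 with R406 against 291, 273 and 272 with DMSO. R406-treated MOLM-14 was the single low group, at intensities that count as dim (difference -4.90 ± 0.13, adjusted p = 8.48e-11).

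The same shape recurred across the replication machinery. MCM10, which helps to fire replication origins, was 9.24, 12.5 and 6.37 in MOLM-14 R406 arrays against 296, 304 and 289.97 in MOLM-14 DMSO arrays, and 160.4, 150.3 and 160.01 in U937 R406 arrays against 155, 179.9 and 166 in U937 DMSO arrays (difference -4.80 ± 0.22, adjusted p = 3.38e-09). GINS2, a subunit of the GINS complex of the replicative helicase, was 30.8, 33.9 and 29.5 in MOLM-14 R406 arrays against 406.1, 457 and 451 in MOLM-14 DMSO arrays, and 546, 553 and 563 in U937 R406 arrays against 550.2, 559 and 524 in U937 DMSO arrays (difference -3.79 ± 0.10, adjusted p = 9.93e-11). In both genes the U937 groups overlapped and the 3 treated MOLM-14 arrays lay below every other array. CDC45, a partner of that complex, had a difference of -3.76 ± 0.11, and FEN1, the nuclease that trims Okazaki fragments, one of -3.61 ± 0.11. The other promoters shown belong to CDC6, which loads the MCM helicase (20.5, 13.3 and 22.7 in MOLM-14 R406 arrays against 221, 223 and 215 in MOLM-14 DMSO arrays, difference -3.24 ± 0.20), and to POLE2, a subunit of DNA polymerase epsilon (24.3, 17.1 and 19.96 against 193, 223 and 216 in the same order, difference -3.21 ± 0.15). Neither fell past the threshold in U937 (adjusted p = 0.346 and 0.7). The members that were not called were E2F1 itself (difference -0.16, adjusted p = 0.451) and the primase gene PRIM1 (-0.09, adjusted p = 0.473).

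Other cell cycle genes outside the list showed the same order. DTL, a substrate receptor of the CRL4 ubiquitin ligase in S phase, fell by 3.80 on the log2 scale in MOLM-14 and gave -0.03 in U937 (difference -3.77 ± 0.12). EXO1, a repair exonuclease, and TRIP13, an ATPase of meiosis and the spindle checkpoint, had differences of -3.72 ± 0.16 and -3.75 ± 0.11. SPC25, a kinetochore subunit, was 12.6, 8.03 and 8.34 in MOLM-14 R406 arrays against 109.9, 122 and 117 in MOLM-14 DMSO arrays, a difference of -3.79 ± 0.18.

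Mitosis genes were lower in the difference without exception, and here the 2 lines moved in opposite directions. All 23 measured members were called lower (median -1.94, range -2.52 to -1.21). In MOLM-14 all 23 fell, with a median effect of -1.53. In U937, 20 of the 23 rose and 0 fell, with a median effect of 0.39 and an effect above 0 for each of the 23. The 3 that did not pass the test in U937 were the cyclin gene CCNA2 (adjusted p = 0.153), the survivin gene BIRC5 (0.0701) and the mitotic kinase gene PLK1 (0.0669). These 20 were among the 150 genes with a fall in MOLM-14 and a rise in U937. The count of 20 became 4 when all 24 arrays set the spread and 21 when all but 1 KG-1 R406 array did, a setting added after the first was seen, and it was 17 after median centring.

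Values of single mitosis genes show the size of the U937 rise, which differed by gene. CDC20, an activator of the anaphase promoting complex, was 268, 253 and 283 in MOLM-14 R406 arrays against 907, 930.5 and 942 in MOLM-14 DMSO arrays. In U937 it was 2132, 2139 and 2205 with R406 against 1684, 1563 and 1703 with DMSO. No groups of a line overlapped, and the effects were -1.79 in MOLM-14 and 0.39 in U937 (difference -2.18 ± 0.09, adjusted p = 1.85e-09). AURKA, a kinase of the spindle poles, was 275, 275 and 262 in MOLM-14 R406 arrays against 759, 737 and 737 in MOLM-14 DMSO arrays, and 1706, 1633 and 1617 in U937 R406 arrays against 1115, 1263 and 1187 in U937 DMSO arrays (difference -1.93 ± 0.09, adjusted p = 4.09e-09). KIF23, a kinesin of the midzone whose promoter is shown, was 31.7, 31.8 and 35.1 in MOLM-14 R406 arrays against 115, 151 and 146 in MOLM-14 DMSO arrays. In U937 R406 arrays it was 359, 415 and 376, against 304, 298 and 289 in U937 DMSO arrays (difference -2.39 ± 0.14). CENPA, the histone H3 variant of centromeres, fell in MOLM-14 (-1.87) and rose in U937 (0.40), with a difference of -2.27 ± 0.11. The checkpoint kinase gene BUB1B and the midzone protein gene PRC1 gave differences of -2.18 ± 0.10 and -1.97 ± 0.09. ASPM, a spindle pole protein, was the list member with the larger change in U937: its effect was -0.63 in MOLM-14 and 0.78 in U937, where it was 542, 549 and 531 with R406 against 317, 306 and 322 with DMSO. Median changes of the mitosis list in the other lines were 0.35 in HL-60 and -0.45 in KG-1, and those of the replication list 0.05 and -1.17.

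**Figure D2:**
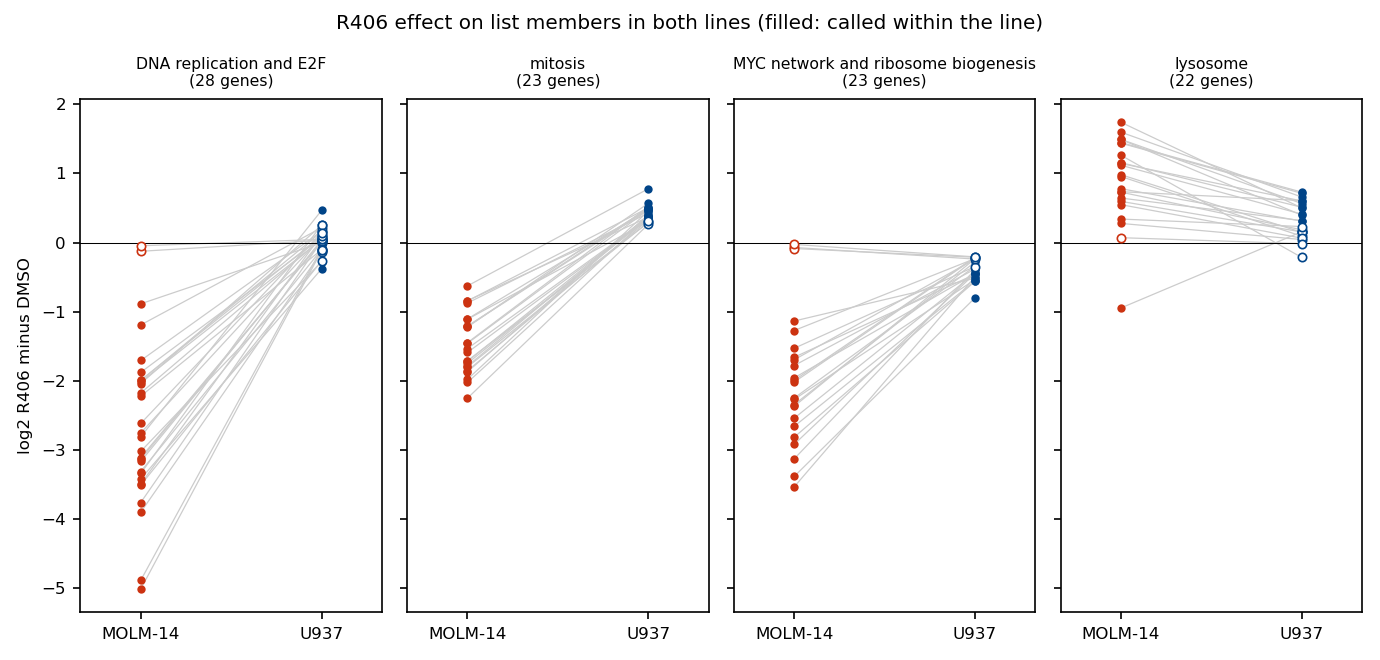
Log2 change with R406 in MOLM-14 (left of each panel) and U937 (right) for the members of 4 gene lists; each line joins a gene, filled points passed the test within the line and open points did not. Most replication members fall in MOLM-14 and lie around 0 in U937, mitosis members lie on opposite sides of 0, most MYC-network members fall in both lines and further in MOLM-14, and most lysosome members rise in both, further in MOLM-14.

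MYC and most of the listed genes that build ribosomes fell in both lines, and further in MOLM-14. MYC is a transcription factor that drives ribosome production and growth. Its intensity was 366, 381 and 398 in MOLM-14 R406 arrays against 3853, 4122 and 4004 in MOLM-14 DMSO arrays. In U937 it was 1896, 1859 and 1977 with R406 against 3159, 3382 and 3441 with DMSO. No groups overlapped within a line, and the effects were -3.38 in MOLM-14 and -0.80 in U937 (difference -2.59 ± 0.09, adjusted p = 4.14e-10). Of the 23 measured members of the MYC network and ribosome biogenesis list, 20 were called lower and 0 higher in the difference (median -1.78). In MOLM-14 20 fell (median of the 23 members -2.02) and in U937 18 fell (median -0.38), of which the count was 11 without U937 DMSO replicate 3. NOP16, a nucleolar protein, had a difference of -3.04 ± 0.11. SRM, the spermidine synthase, was 103, 102 and 105 in MOLM-14 R406 arrays against 780.5, 823 and 762 in MOLM-14 DMSO arrays, and 1099.95, 1111 and 1070.5 in U937 R406 arrays against 1449, 1508 and 1512 in U937 DMSO arrays (difference -2.47 ± 0.08). NOLC1, a chaperone of nucleolar RNPs, had a difference of -2.06 ± 0.09. The 3 members not called were NPM1 (0.13), FBL (0.17) and POLR1B (0.18). In the other lines the list's median was -0.37 in HL-60 and -1.51 in KG-1.

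Outputs of ERK, the kinase at the end of the RAS pathway, split in a different way. Of 17 measured ERK outputs and feedback regulators, 9 were called lower and 2 higher, against 21.2% of all genes each way. The median was -0.54, or -0.24 with a pseudocount of 16. In MOLM-14 11 fell and 1 rose, against 24.8% and 29.8% of all genes. In U937 9 fell and 0 rose, against 4.69% and 6.10% of all genes. DUSP6, the phosphatase that switches off ERK and is itself induced by it, was 15.7, 15.1 and 19.9 in MOLM-14 R406 arrays against 286, 268 and 293 in MOLM-14 DMSO arrays. The U937 values were 329, 378 and 401 with R406 against 344, 371 and 369 with DMSO. The treated MOLM-14 arrays lay far below the other 9 arrays, and the U937 groups overlapped (difference -4.02 ± 0.14, adjusted p = 4.14e-10). DUSP6 changed by 1.10 in HL-60 and by -3.85 in KG-1. ETV5, a PEA3 transcription factor induced by ERK, fell in both lines, with effects of -3.46 in MOLM-14 and -0.81 in U937 (difference -2.65 ± 0.12). SPRY2, a Sprouty feedback inhibitor, was 49.1, 45.6 and 56.02 in MOLM-14 R406 arrays against 255, 262 and 241 in MOLM-14 DMSO arrays, and 176, 174 and 197 in U937 R406 arrays against 246, 252 and 286 in U937 DMSO arrays (difference -1.80 ± 0.13). DUSP5, a nuclear ERK phosphatase, also fell in both (-2.04 in MOLM-14 and -0.46 in U937). The members called higher were DUSP4 (0.53 ± 0.14) and the immediate early gene IER2 (0.57 ± 0.11).

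STAT5 outputs showed no common direction. Of 15 measured, 3 were called higher and 5 lower, against 21.2% of all genes in each direction. The median of 0.05 ran from -0.02 after quantile normalization to 0.13 without MOLM-14 R406 replicate 2. CCND2, a G1 cyclin, was 247, 192 and 212 in MOLM-14 R406 arrays against 1053, 1094 and 1068 in MOLM-14 DMSO arrays, and 379, 341 and 333 in U937 R406 arrays against 638, 691 and 676 in U937 DMSO arrays. It fell in both lines and further in MOLM-14 (difference -1.38 ± 0.13). CISH, a feedback inhibitor of cytokine receptors, fell in both (-1.10 in MOLM-14, -0.46 in U937, adjusted p for the difference = 0.00921). The kinase gene PIM1 gave -0.32 ± 0.15 and was not called (adjusted p = 0.124). SOCS2, another feedback inhibitor, was called higher (1963, 1748 and 2204 with R406 against 1638, 1705 and 1833 with DMSO in MOLM-14, and 53.7, 61.6 and 62.97 with R406 against 79.6, 83.9 and 95.5 with DMSO in U937). It fell in U937 and did not pass the test in MOLM-14 (difference 0.72 ± 0.14). ID1, an inhibitor of bHLH factors, and the cytokine gene LTB were lower (-1.72 ± 0.13 and -1.56 ± 0.22), and GADD45B, a stress-response gene, was higher (0.95 ± 0.11).

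FOXO-linked genes, which AKT holds down, were higher in the difference. Of 13 measured genes 11 were called higher and 1 lower, CITED2 (-0.49), against 21.2% of all genes each way. The median was 0.85. The call of CITED2 was lost without MOLM-14 DMSO replicate 3, without any one of the U937 arrays, and with all 24 arrays in the fit (adjusted p = 0.0575). In MOLM-14 12 rose and 1 fell, against 29.8% and 24.8% of all genes. In U937 2 rose and 0 fell, against 6.10% and 4.69% of all genes. TSC22D3, a leucine zipper protein also induced by glucocorticoids, was 1341, 1207 and 1167 in MOLM-14 R406 arrays against 237, 199.7 and 225 in MOLM-14 DMSO arrays, and 134, 143 and 137 in U937 R406 arrays against 135, 138 and 178 in U937 DMSO arrays (difference 2.59 ± 0.15). PIK3IP1, an inhibitor of PI3K, was 86.7, 98.4 and 111 in MOLM-14 R406 arrays against 19.5, 19.8 and 17.5 in MOLM-14 DMSO arrays (difference 2.18 ± 0.17). For both genes the U937 groups overlapped. TXNIP, which restrains glucose uptake, rose in both lines and further in MOLM-14 (1.26 against 0.42 in U937), and the catalase gene CAT had a difference of 0.99 ± 0.10.

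**Figure D3:**
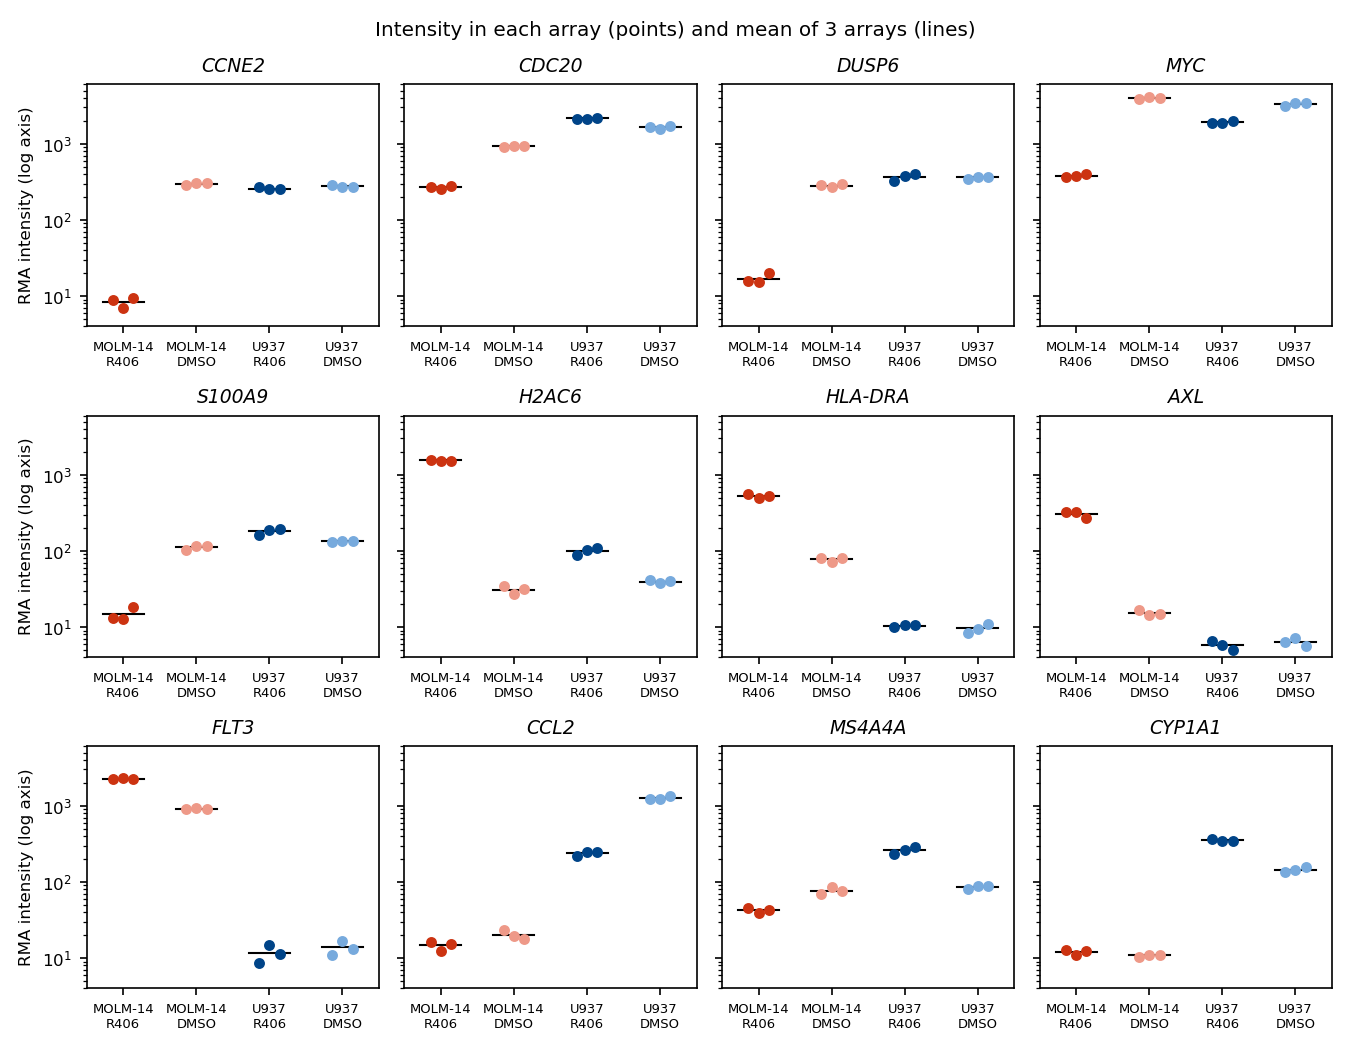
RMA intensity (log axis) of 12 genes in each array (points) and the mean of 3 arrays (lines), for MOLM-14 with R406, MOLM-14 with DMSO, U937 with R406 and U937 with DMSO. CCNE2, DUSP6 and S100A9 are low in the treated MOLM-14 arrays alone, H2AC6, HLA-DRA and AXL are highest there, and CCL2, MS4A4A and CYP1A1 change mainly in U937.

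Genes of several biosynthetic pathways fell further in MOLM-14. All 12 measured cholesterol synthesis genes fell in MOLM-14, 3 fell in U937, and 11 were called lower in the difference (median -1.21). SQLE, the squalene epoxidase, was 24.1, 24.5 and 22.2 in MOLM-14 R406 arrays against 468, 443 and 451 in MOLM-14 DMSO arrays. U937 arrays had 743, 676 and 720.4 with R406 against 782, 791 and 766 with DMSO. The treated MOLM-14 arrays stood below all the others, while the U937 effect did not pass the test (difference -4.08 ± 0.09, adjusted p = 5.19e-11). HMGCS1, IDI1 and EBP, enzymes of the same pathway, had differences of -1.75 ± 0.11, -1.55 ± 0.10 and -1.30 ± 0.11. The member that was not called was MVD (-0.27).

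Genes of the ATF4 response, which supplies amino acids under stress, mostly fell in both lines. Of 24 measured, 16 were called lower and 6 higher (median -0.64), against 21.2% of all genes in each direction. The share called higher, 25.0%, was near that of all genes. In MOLM-14 17 fell and 5 rose, against 24.8% and 29.8% of all genes. In U937 15 fell and 0 rose, against 4.69% and 6.10% of all genes. PHGDH, the first enzyme of serine synthesis, was 32.2, 48.5 and 45.8 in MOLM-14 R406 arrays against 339, 356 and 387 in MOLM-14 DMSO arrays, and 266, 275 and 267 in U937 R406 arrays against 288, 265 and 274 in U937 DMSO arrays (difference -3.06 ± 0.17). SLC7A5, an importer of large neutral amino acids, fell in both (-3.28 in MOLM-14, -1.04 in U937, difference -2.24 ± 0.12), as did ASNS, the asparagine synthetase (-2.20 in MOLM-14, -0.63 in U937). AARS1, an alanyl-tRNA synthetase, gave -1.27 ± 0.08. ATF4 itself, singled out after its value was seen, was higher in the difference (0.60 ± 0.09), with -0.08 in MOLM-14 and -0.68 in U937.

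Of 19 measured glycolysis and hypoxia genes, 12 were called lower and 2 higher (median -0.42), against 21.2% of all genes each way. In MOLM-14 15 fell and in U937 7, against 24.8% and 4.69% of all genes. The 7 became 2 without U937 DMSO replicate 2, 3 without U937 DMSO replicate 3 or R406 replicate 1, and 4 without U937 R406 replicate 2. LDHA, the lactate dehydrogenase subunit, was 1638, 1676 and 1770.3 in MOLM-14 R406 arrays against 6065, 6005 and 5819.7 in MOLM-14 DMSO arrays, and 5014, 5052 and 5013 in U937 R406 arrays against 5749.5, 5398 and 5519 in U937 DMSO arrays (difference -1.67 ± 0.08). PFKP, a phosphofructokinase, and TPI1, the triose phosphate isomerase, gave -1.46 ± 0.09 and -1.28 ± 0.09. The pyruvate kinase gene PKM had -2.29 ± 0.13 on its chosen probe set, and its probe sets ran from -2.29 to 0.04, so it is uncertain. The members called higher were ADM (0.66) and VEGFA, described with the genes of larger U937 change. Among runs without 1 array, ADM was called only without MOLM-14 DMSO replicate 1, MOLM-14 R406 replicate 3 or U937 DMSO replicate 2. Its call was also lost after quantile normalization (adjusted p = 0.0501) and with a pseudocount of 16 (adjusted p = 0.0585).

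Histone genes were the list with the highest median difference, 2.90. Of 13 measured, 12 were called higher and 0 lower. All 13 rose in MOLM-14 and 6 rose in U937, a count of 3 without any one of U937 DMSO replicates 1 and 3 and U937 R406 replicates 1 and 2. Histone genes are near-identical copies, so a probe set may also bind its relatives and single members are uncertain. H2AC6, a histone H2A gene, was 1571, 1531 and 1530.1 in MOLM-14 R406 arrays against 35.1, 26.9 and 31.2 in MOLM-14 DMSO arrays. U937 arrays gave 87.4, 103 and 108 with R406 against 41.1, 37.7 and 39.7 with DMSO. Treated arrays lay above untreated ones in each line, by 5.60 in MOLM-14 and 1.31 in U937 (difference 4.29 ± 0.14, adjusted p = 2.3e-10). H2BC12 rose in both as well (3.88 in MOLM-14, 0.92 in U937). H2AC8 and H2BC8 were dim in U937 with both treatments and in MOLM-14 DMSO arrays, and their differences were 3.40 ± 0.12 and 3.22 ± 0.17. Outside the list, H2AC17 gave 4.65 ± 0.16. The member that was not called was H2AC18 (0.35). In the other lines the list's median was -0.07 in HL-60 and 1.99 in KG-1.

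**Figure D4:**
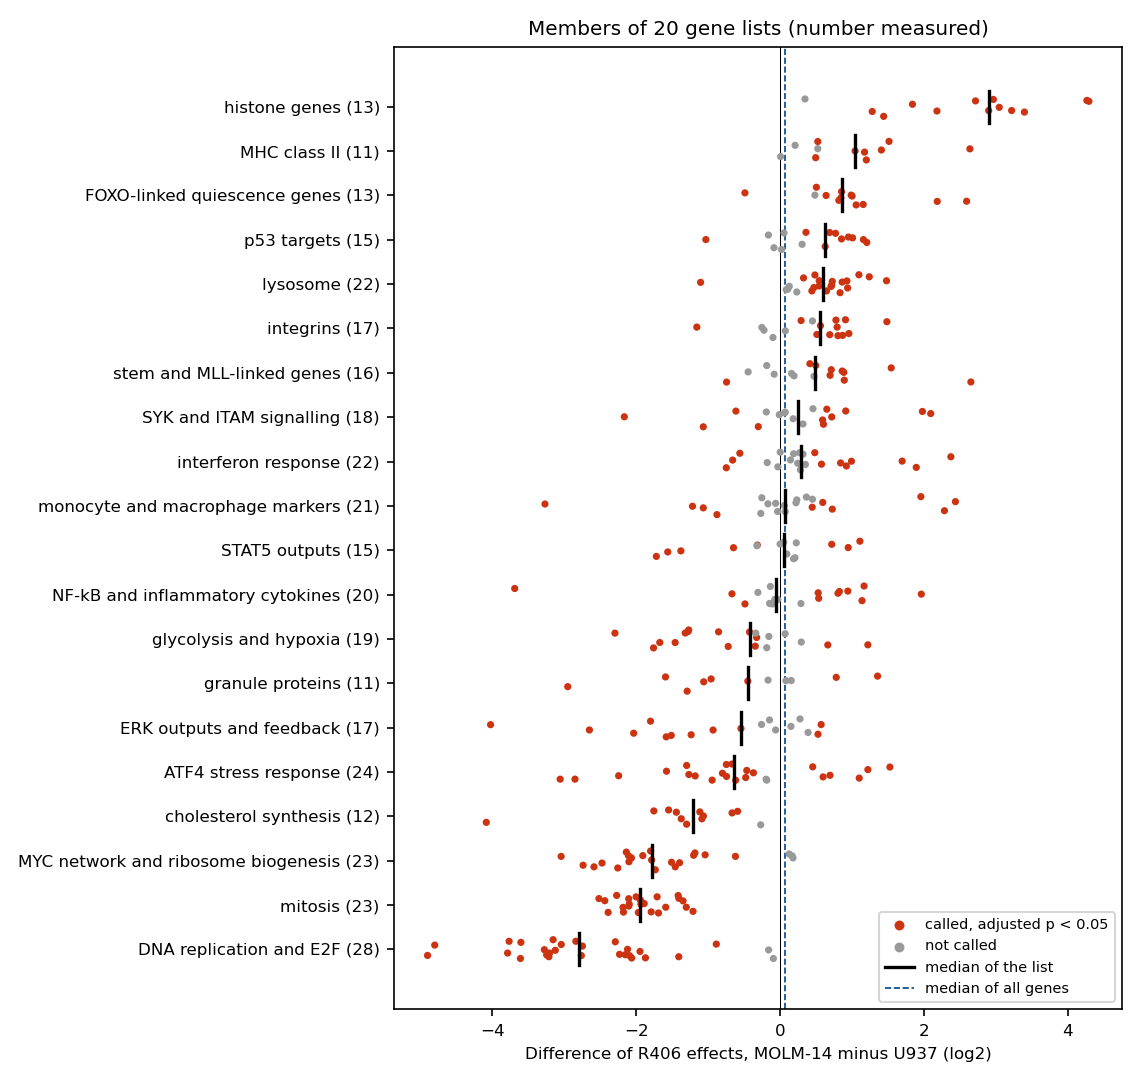
Difference of R406 effects (MOLM-14 minus U937, log2) for each measured member of 20 gene lists; red points passed the test, grey points did not, and black bars mark list medians. Medians run from -2.80 for replication genes to 2.90 for histone genes, against 0.07 for all genes.

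Genes of myeloid maturation and antigen presentation changed unevenly. Of 22 measured lysosome genes 17 were called higher and 1 lower (median 0.60), against 21.2% of all genes each way. In MOLM-14 20 rose and in U937 12, against 29.8% and 6.10% of all genes. PSAP, the precursor of the saposins, was 2226, 2134 and 2287 in MOLM-14 R406 arrays against 689, 638 and 659 in MOLM-14 DMSO arrays, and 698, 701 and 718 in U937 R406 arrays against 522, 491 and 482 in U937 DMSO arrays (difference 1.24 ± 0.09). TPP1, a lysosomal peptidase, rose in both lines too (1.49 in MOLM-14, 0.57 in U937). NPC1, which exports cholesterol from lysosomes, rose in MOLM-14 (1.26) and gave -0.22 in U937 (adjusted p = 0.0908, difference 1.48 ± 0.10). The cathepsin gene CTSH was the member called lower (-1.10 ± 0.10), at 9.85, 10.1 and 11.4 in MOLM-14 R406 arrays against 20.3, 20.9 and 21.9 in MOLM-14 DMSO arrays, far below its 544 to 585 in U937 R406 arrays and 502 to 519 in U937 DMSO arrays.

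MHC class II molecules present peptides to helper T cells. Of 11 measured genes 8 were called higher and 0 lower, against 21.2% of all genes each way. The median was 1.04, or 0.50 with a pseudocount of 16 and 0.62 with the mean of a gene's probe sets. In MOLM-14 9 rose and in U937 2, against 29.8% and 6.10% of all genes. With both treatments 2 of the 11 were dim in MOLM-14 and 5 were dim in U937. HLA-DRA was 561, 499.9 and 518 in MOLM-14 R406 arrays against 80.4, 70.8 and 80.1 in MOLM-14 DMSO arrays. In U937 it was dim, at 10.1, 10.7 and 10.5 with R406 against 8.3004, 9.36 and 11.1 with DMSO. Only the MOLM-14 groups were apart (difference 2.64 ± 0.13, adjusted p = 6.05e-09). HLA-DMA, which edits the bound peptide, was 159, 163 and 159 in MOLM-14 R406 arrays against 24.1, 25.2 and 22.8 in MOLM-14 DMSO arrays, and 28.5, 26.5 and 25.2 in U937 R406 arrays against 11.5, 8.29 and 11.7 in U937 DMSO arrays (difference 1.41 ± 0.15). HLA-DMA and HLA-DRB1 (1.49 in MOLM-14, 0.29 in U937) were the 2 members that rose in U937. HLA-DMB gave 1.51 ± 0.14.

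Monocyte and macrophage markers went both ways: of 21 measured, 6 were called higher and 4 lower (21.2% of all genes in each direction). The median of 0.07 ran from 0.03 without U937 DMSO replicate 3 to 0.23 when the dimmest 33.3% of probe sets were left out, with 0.17 without MOLM-14 R406 replicate 1 or U937 DMSO replicate 2, 0.14 without U937 R406 replicate 2 and 0.13 without MOLM-14 DMSO replicate 3. S100A9, a calcium-binding alarmin of monocytes and neutrophils, was 13.3, 12.7 and 18.2 in MOLM-14 R406 arrays against 102, 115 and 117 in MOLM-14 DMSO arrays. The U937 arrays had 161, 188 and 192 with R406 against 131, 136 and 135 with DMSO. It fell in MOLM-14 and rose in U937 (difference -3.27 ± 0.17, adjusted p = 6.5e-09). Its partner S100A8 fell slightly in MOLM-14 (531, 403 and 484 with R406 against 530.4, 564 and 620.5 with DMSO) and rose in U937 (449, 413 and 435 with R406 against 209, 225 and 242 with DMSO). The MOLM-14 groups of S100A8 overlapped, with an adjusted p of 0.0331 for that fall. CD86, a costimulatory ligand, was 103, 103 and 102 in MOLM-14 R406 arrays against 11.6, 9.18 and 11.1 in MOLM-14 DMSO arrays, and 15.8, 19.2 and 17.3 in U937 R406 arrays against 9.18, 11.5 and 9.75 in U937 DMSO arrays (difference 2.44 ± 0.14). The scavenger receptor gene CD36 and CSF1R, the receptor for macrophage colony stimulating factor, rose in MOLM-14 and did not pass the test in U937 (differences 2.28 ± 0.18 and 1.96 ± 0.16). ITGAM (CD11b) rose in both lines (0.51 in MOLM-14, 0.76 in U937), and its difference was not called (-0.25, 95% interval -0.57 to 0.06).

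Granule proteins of immature myeloid cells were mostly lower. Of 11 measured, 6 were called lower and 2 higher (median -0.45), against 21.2% of all genes each way. The share called higher, 18.2%, was near that of all genes. PRTN3, the serine protease proteinase 3, was 35.6, 44.3 and 34.1 in MOLM-14 R406 arrays against 343, 372 and 359 in MOLM-14 DMSO arrays, and 209, 214 and 222 in U937 R406 arrays against 259.8, 263 and 251 in U937 DMSO arrays (difference -2.95 ± 0.12). ELANE, the neutrophil elastase, fell in MOLM-14 (-1.05) and gave 0.24 in U937 (adjusted p = 0.0552). AZU1, azurocidin, fell in MOLM-14 (-0.73) and rose in U937 (0.33). SERPINB1, an inhibitor of these proteases, did the opposite, with 1.07 in MOLM-14 and -0.28 in U937 (difference 1.36 ± 0.09).

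The SYK and ITAM list is the pathway of the kinase named first among the drug's targets. Of 18 measured genes 7 were called higher and 4 lower (median 0.25), against 21.2% of all genes in each direction. The share called lower, 22.2%, was near that of all genes. In MOLM-14 10 rose and 5 fell, against 29.8% and 24.8% of all genes. In U937 5 rose and 0 fell, against 6.10% and 4.69% of all genes. TYROBP, the ITAM adaptor DAP12, was 1043, 1041 and 919 in MOLM-14 R406 arrays against 148, 119.98 and 134 in MOLM-14 DMSO arrays. In U937 cells TYROBP was 328, 324 and 345 with R406 against 178, 184 and 165 with DMSO. It rose in both lines and further in MOLM-14 (difference 1.98 ± 0.12, adjusted p = 3.16e-08). BLNK, an adaptor phosphorylated by SYK, also rose in both (3.01 in MOLM-14, 0.91 in U937). CARD9, which links SYK to NF-kB, fell in MOLM-14 (-1.82) and rose in U937 (0.34), as did FCGR1A, the high-affinity IgG receptor (-0.56 in MOLM-14, 0.51 in U937).

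Of 17 measured integrins and partners, 11 were called higher and 1 lower (median 0.56), against 21.2% of all genes each way. ITGB3, the integrin of the study's title, was dim in all groups, at 9.27 to 9.47 in MOLM-14 R406 arrays against 8.04 to 9.88 in MOLM-14 DMSO arrays and 6.64 to 8.67 in U937 R406 arrays against 6.38 to 9.59 in U937 DMSO arrays (difference 0.07, adjusted p = 0.789). Its alpha V partner ITGAV was 115, 95.8 and 136 in MOLM-14 R406 arrays against 68.002, 57.7 and 50.3 in MOLM-14 DMSO arrays, and 54.1, 61.9 and 67.5 in U937 R406 arrays against 53.996, 47.1 and 49.9 in U937 DMSO arrays. ITGAV rose in MOLM-14 (difference 0.69 ± 0.19, adjusted p = 0.0106), and in U937 its effect of 0.27 did not pass the test. ICAM3 and ICAM1, ligands of leukocyte integrins, gave 1.48 ± 0.10 and 0.80 ± 0.10, and ICAM1 rose in MOLM-14 and fell in U937 (0.44 and -0.36). ITGAL, the LFA-1 alpha chain, rose in both lines (difference 0.78 ± 0.11). ITGB2, the shared beta 2 chain, was the member called lower (-1.16 ± 0.09): it fell in MOLM-14 (-0.92) and rose in U937 (0.24, adjusted p = 0.0399).

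Stem-cell and MLL-linked genes were mostly higher. Of 16 measured, 9 were called higher and 1 lower, GATA2 (-0.74), against 21.2% of all genes each way. The median was 0.48. KIT, a receptor of the same family as FLT3, was 176, 119 and 136 in MOLM-14 R406 arrays against 22.1, 15.5 and 15.99 in MOLM-14 DMSO arrays, and 16.5, 20.95 and 14.6 in U937 R406 arrays against 17.2, 14.3 and 10.9 in U937 DMSO arrays (difference 2.65 ± 0.27). MEIS1, a homeobox cofactor sustained by MLL fusions, rose in both lines (1.03 in MOLM-14, 0.32 in U937, difference 0.71 ± 0.10). PBX3, its partner, and the transcription factor genes SOX4 and LMO2 rose in MOLM-14 and did not pass the test in U937 (differences 0.89, 0.86 and 0.89).

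NF-kB and inflammatory cytokine genes had members at both ends: of 20 measured, 8 were called higher and 3 lower, against 21.2% of all genes each way. The list's median of -0.05 was -0.09 without MOLM-14 R406 replicate 1 and turned to 0.53 when the dimmest 33.3% of probe sets were left out and to 0.02 without MOLM-14 R406 replicate 2. TNF was 19.5, 11.1 and 13.1 in MOLM-14 R406 arrays against 286, 300.1 and 319 in MOLM-14 DMSO arrays, and 17.9, 19.7 and 15.2 in U937 R406 arrays against 26.1, 23.9 and 33.6 in U937 DMSO arrays. It fell in both lines, and much further in MOLM-14 (difference -3.69 ± 0.24, adjusted p = 6.12e-08). U937 DMSO arrays started low, at 23.9 to 33.6, and the lowest intensity on any of the 12 arrays was 3.41. That left less room for a fall in U937, and the part of the starting level in the difference was not tested. NFKBIA, the inhibitor that NF-kB induces, rose in MOLM-14 (1.03, against 0.08 in U937, difference 0.94 ± 0.10).

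Other stress and death genes differed one by one. Of 22 measured interferon response genes, 8 were called higher and 3 lower (median 0.29), against 21.2% of all genes in each direction. With both treatments 7 of the 22 were dim in MOLM-14 and 10 were dim in U937. Members called higher included ISG20, an exonuclease, at 2.37 ± 0.12 and the GTPase GBP2 at 1.89 ± 0.24. The factors IRF9 and IRF7 were also higher, at 1.70 ± 0.13 and 0.99 ± 0.14. Of 15 measured p53 targets, 9 were called higher and 1 lower, FAS (-1.03 ± 0.12), against 21.2% of all genes each way. Their median was 0.63. XPC, a DNA damage sensor, gave 1.21 ± 0.10, the death receptor gene TNFRSF10B 1.16 ± 0.10 and ZMAT3, an RNA-binding protein, 1.01 ± 0.13. CDKN1A (p21), the best known of these targets, was not called (0.31, adjusted p = 0.169), although it was with quantile normalization (0.44) and with a pseudocount of 16 (0.34). In the BCL2 family, 4 of 14 measured genes were called higher and 3 lower, near the 21.2% of all genes in each direction. The counts became 3 higher and 4 lower without MOLM-14 DMSO replicate 2 or U937 R406 replicate 2, and the median of -0.05 ran from -0.10 without MOLM-14 R406 replicate 1 to 0.05 after quantile normalization. The proapoptotic genes BNIP3L and BCL2L11 (BIM) were higher (1.40 ± 0.12 and 1.16 ± 0.24), and BID and the survival gene BCL2A1 were lower (-1.13 ± 0.11 and -0.66 ± 0.13).

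Receptors for chemoattractants also split, with 5 of 14 measured called higher and 5 lower (21.2% of all genes each way). PTAFR, the platelet-activating factor receptor, and CX3CR1, the fractalkine receptor, were higher (2.10 ± 0.15 and 1.55 ± 0.12). The nucleotide receptor gene P2RY2 was lower (-2.24 ± 0.16). CCR2, the receptor for CCL2, was 77.4, 53.97 and 61.005 in MOLM-14 R406 arrays against 132, 136 and 136 in MOLM-14 DMSO arrays, and 31.9, 35.2 and 36.3 in U937 R406 arrays against 19.2, 15.3 and 20.5 in U937 DMSO arrays. It fell in MOLM-14 and rose in U937 (difference -1.96 ± 0.18, adjusted p = 1.24e-06).

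The genes with the highest differences outside these lists rose in MOLM-14 and were dim or nearly dim in U937 with both treatments. SELENOP, a secreted selenium carrier, was 430.4, 324 and 510.3 in MOLM-14 R406 arrays against 9.97, 13.2 and 8.702 in MOLM-14 DMSO arrays, and 4.99 to 5.67 in U937 R406 arrays against 4.96 to 5.53 in U937 DMSO arrays (difference 5.13 ± 0.22, adjusted p = 1.91e-09). AXL, a receptor kinase of the TAM family, was 325, 328 and 268 in MOLM-14 R406 arrays against 16.6, 14.5 and 14.8 in MOLM-14 DMSO arrays, and 5.02 to 6.65 in U937 R406 arrays against 5.69 to 7.18 in U937 DMSO arrays (difference 4.36 ± 0.16). Its probe sets ran from 0.63 to 4.36. SERPINF1, the secreted factor PEDF, the zinc finger gene ZNF467, the prolactin gene PRL and PTGDS, a prostaglandin D synthase, gave 4.02 ± 0.14, 3.58 ± 0.20, 3.60 ± 0.11 and 3.25 ± 0.10. HES1, a repressor downstream of Notch, gave 3.55 ± 0.17, but its probe sets ran from -1.36 to 3.55 with calls both ways, so it is uncertain. At the other end, IGFBP2, a binding protein for insulin-like growth factors, was 11.2, 8.12 and 9.23 in MOLM-14 R406 arrays against 191, 206 and 205 in MOLM-14 DMSO arrays (difference -4.04 ± 0.16), and the acid phosphatase gene ACP3 was 49.1, 51.8 and 56.7 against 755, 681 and 688 in the same order (difference -3.81 ± 0.12). IGFBP2 was not dim in U937 (216 to 249 with R406 against 239.6 to 302 with DMSO).

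A smaller set changed more in U937. Among genes that passed the test in U937 and for the difference, 164 that were not dim in all 4 groups had the larger effect in U937, 63 of them called higher and 101 lower. CCL2, a chemokine that attracts monocytes, was 16.2, 12.5 and 15.4 in MOLM-14 R406 arrays against 23.6, 19.2 and 17.9 in MOLM-14 DMSO arrays. Its U937 values were 218, 246 and 249 with R406 against 1231, 1208 and 1326 with DMSO. It fell in both lines, with effects of -0.43 in MOLM-14 and -2.40 in U937, so the difference was positive (1.96 ± 0.16, adjusted p = 3.79e-07). MOLM-14 DMSO arrays started low, at 17.9 to 23.6, which left less room for a fall there. The part of the starting level in the difference was not tested. CXCL8 (interleukin 8) had an effect of -0.21 in MOLM-14, which did not pass, and fell in U937, at 109, 102 and 131 with R406 against 256, 266 and 362 with DMSO (effect -1.35). MMP1, a collagenase, and the phosphodiesterase gene PDE9A also fell in U937 and did not pass in MOLM-14 (differences 1.23 ± 0.15 and 1.06 ± 0.15). VEGFA and SIGLEC6, a sialic acid binding lectin, rose in MOLM-14 and fell in U937 (differences 1.22 ± 0.11 and 1.05 ± 0.16).

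Other genes rose in U937 and fell by less in MOLM-14. MS4A4A, a macrophage surface protein, was 44.7, 38.7 and 43.4 in MOLM-14 R406 arrays against 69.6, 84.7 and 75.2 in MOLM-14 DMSO arrays, and 234, 264 and 289.6 in U937 R406 arrays against 79.8, 88.4 and 87.9 in U937 DMSO arrays. It fell in MOLM-14 and rose in U937, and no groups overlapped within a line (difference -2.44 ± 0.14, adjusted p = 1.59e-08). FAM111A, a nuclear protease, PPIC, a cyclophilin, and ECM1, an extracellular matrix protein, did the same (differences -1.23 ± 0.11, -1.20 ± 0.13 and -1.30 ± 0.27).

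Targets of the aryl hydrocarbon receptor, a sensor of aromatic compounds, differed by gene. CYP1A1, its best known target, lay around the dim level in MOLM-14, at 12.7, 10.9 and 12.5 with R406 against 10.4, 11.1 and 11.04 with DMSO. In U937 it was 360.3, 343 and 348 in R406 arrays against 134, 143 and 156 in DMSO arrays. It rose in U937 and did not pass the test in MOLM-14 (difference -1.14 ± 0.11, adjusted p = 2.02e-06). CYP1B1, a related oxidase, showed the reverse: 599.7, 638 and 605 in MOLM-14 R406 arrays against 156, 142 and 142 in MOLM-14 DMSO arrays, and dim in U937 (difference 2.05 ± 0.13). NQO1, a quinone reductase induced by this receptor and by NRF2, fell in MOLM-14 (-1.13) and rose in U937 (0.83). Of 9 measured genes in this list 3 were called higher and 2 lower, a small list near the 21.2% of all genes in each direction. Among 10 measured NRF2 antioxidant genes 2 were called higher and 5 lower (21.2% of all genes each way), with the heme oxygenase gene HMOX1 rising in both lines (2.83 in MOLM-14, 1.38 in U937), the malic enzyme gene ME1 at 0.88 ± 0.13 and the peroxiredoxin gene PRDX1 at -1.63 ± 0.10.

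Among genes with opposite signs, those that fell in MOLM-14 and rose in U937 had the thymidine kinase gene TK1 at the low end. Its rise in U937 was not called without U937 DMSO replicate 2 or with all 24 arrays in the fit. TK1 was 15.6, 14.4 and 18.1 in MOLM-14 R406 arrays against 113, 121 and 119 in MOLM-14 DMSO arrays, and 123, 125 and 131 in U937 R406 arrays against 106, 81.4 and 88.02 in U937 DMSO arrays (difference -3.27 ± 0.14, adjusted p = 2.01e-09). RAD51AP1, a cofactor of recombination, ASF1B, a histone chaperone, CDCA3, a cell division protein, and SLPI, a protease inhibitor, followed (differences -3.18 ± 0.14, -3.13 ± 0.16, -2.84 ± 0.10 and -2.87 ± 0.26). In the reverse class, CD9, a tetraspanin, was 444, 401 and 512 in MOLM-14 R406 arrays against 50.5, 51.9 and 56.4 in MOLM-14 DMSO arrays, and 13.96, 13.1 and 14.1 in U937 R406 arrays against 18.5, 17.1 and 16.4 in U937 DMSO arrays (difference 3.38 ± 0.13). IL3RA, the interleukin 3 receptor alpha chain CD123, was 459, 502 and 461 in MOLM-14 R406 arrays against 169.99, 178 and 145 in MOLM-14 DMSO arrays (difference 2.11 ± 0.20). Its U937 values were low, 11.6, 13.7 and 9.87 with R406 against 21.4, 19.1 and 14.2 with DMSO. DEPTOR, an inhibitor of mTOR, the histone demethylase gene KDM7A, CSNK2A2, a casein kinase subunit, and TMEM158 had differences of 2.49, 1.97, 1.92 and 1.88.

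Some changes were shared. In 279 genes both lines changed with the same sign and the difference was not called, which does not show that the effects were equal. ID2, an inhibitor of bHLH factors, was 1494, 1583 and 2098 in MOLM-14 R406 arrays against 919, 835 and 887 in MOLM-14 DMSO arrays, and 1209, 1179.8 and 1299 in U937 R406 arrays against 613, 667 and 774 in U937 DMSO arrays. It rose in both, by 0.95 in MOLM-14 and 0.85 in U937, and the 95% interval of the difference ran from -0.26 to 0.47. MAP3K8, a kinase upstream of ERK, rose by 1.52 in MOLM-14 and 1.10 in U937 (interval 0.02 to 0.83), and it was called without MOLM-14 R406 replicate 2. ATP10D, a lipid flippase, and SLC67A1 also rose in both, with intervals of -0.39 to 0.22 and -0.09 to 0.66. The homeobox gene DLX2, the cell cycle factor gene E2F5, YRDC, a tRNA-modifying enzyme, and PRR7 fell in both, with intervals of -0.62 to 0.02, -0.46 to 0.18, -0.58 to 0.19 and -0.88 to 0.17.

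**Figure D5:**
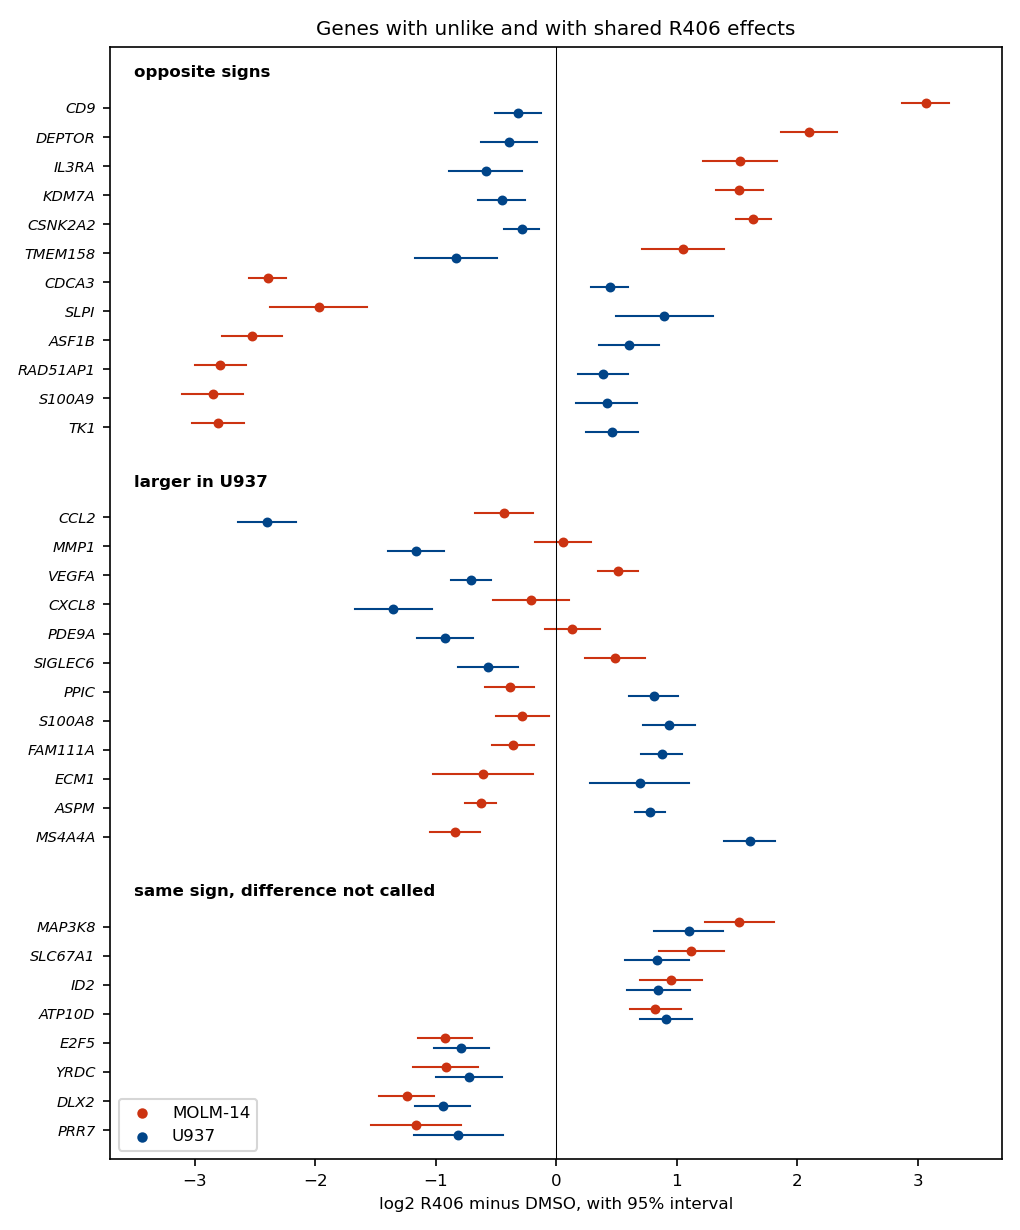
Log2 change with R406 and its 95% interval in MOLM-14 (red, upper point) and U937 (blue, lower point) for genes with opposite signs, genes with the larger effect in U937 and genes that changed alike with no call for the difference. In the last block the intervals of the 2 lines overlap for each of the 8 genes.

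The HL-60 and KG-1 arrays, which the difference did not use, gave other values to set beside these. Among the 1001 genes at least 2-fold lower, the median effect was -1.55 in MOLM-14, -0.06 in U937, -0.08 in HL-60 and -0.81 in KG-1. The HL-60 effect lay nearer to that of MOLM-14 than to that of U937 for 25 of them (2.50%), and the KG-1 effect for 510 (50.9%). Among the 641 genes at least 2-fold higher, the median effect was 1.43 in MOLM-14, 0.09 in U937, 0.04 in HL-60 and 0.66 in KG-1, and HL-60 lay nearer to MOLM-14 for 19 (2.96%) and KG-1 for 264 (41.2%). Both sets were picked for a difference between MOLM-14 and U937, and their U937 medians were near 0. A line with small effects then lies nearer to U937 for most of them, so these shares do not measure likeness of response. Across all 12165 genes the effects in MOLM-14 and U937 had a Pearson's r of 0.38 and a Spearman's rho of 0.34, a description across genes, which share arrays and are not independent replicates.

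Markers of other cell types were mostly dim, and each of these lists had a smaller share called than the 21.2% of all genes in each direction. For T and NK cells 2 of 16 measured genes were called higher and 0 lower, for B cells 1 of 8 higher, for erythroid cells 1 higher and 1 lower of 9, for megakaryocytes 1 of 9 higher, and for fibroblasts and epithelia 1 of 12 higher. NKG7, a granule protein also found in myeloid lines, was 271 to 302 in MOLM-14 R406 arrays against 134 to 157 in MOLM-14 DMSO arrays and 917 to 979.6 in U937 R406 arrays against 797 to 819.7 in U937 DMSO arrays (difference 0.72 ± 0.10). The erythroid list's lower member was the transferrin receptor gene TFRC, which dividing cells of all kinds express (-1.81 ± 0.13). The summed intensity of the 7 T and NK markers was 322 to 357 with R406 against 191 to 214 with DMSO in MOLM-14, and 976 to 1030.1 with R406 against 846 to 875 with DMSO in U937. The sum of the 5 megakaryocyte markers was 57.7 to 62.7 with R406 against 45.9 to 48.9 with DMSO in MOLM-14, and 45.4 to 48.4 with R406 against 48.6 to 52.3 with DMSO in U937. Their part in the results was not tested.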

How the data were processed

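Total RNA of the MOLM-14 and U937 cultures had been hybridised to HT U133A arrays. The authors deposited 1 table of intensity values on a linear scale, made by RMA per the submitters' processing notes; the version of RMA and the probe annotation build are not given in the sources used here. RMA pools probes and makes array distributions alike, so a shift of most genes in 1 direction would be removed, and it has no detection call. Values were used as log2 of intensity plus 1. Of 22277 probe sets, 62 controls, 568 with several symbols and 1923 with none listed were left out of the test. Symbols came from the platform annotation, and 19707 of the 19724 probe sets kept matched the reference table by gene ID. A gene was represented by its brightest probe set on average over the 24 arrays. For 5111 genes it carries a suffix that allows it to bind related transcripts.

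A linear model with 1 mean per group (limma 3.58.1 in R 4.3.3, with moderated variances and 8 residual degrees of freedom) was fitted to the 12 arrays. The difference, the effect in each line and the DMSO levels were contrasts of that fit, two-sided, with Benjamini-Hochberg adjustment over 19724 probe sets and a threshold of 0.05. Intervals cover 95%. The labels call the samples triplicates without saying that they came from separate cultures, so p-values measure only the spread between these arrays, which may be technical. Replicate numbers did not pair samples. The dose of 4 µM is that of the treatment protocol, and the design text gives the same figure in mM. The scripts were tested on simulated data.

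The comparison and the 29 gene lists (493 genes, 442 measured) were chosen with earlier results of these data known. Some named genes came from called genes not dim in every group. They were the 12 highest and 12 lowest differences, and the 6 highest and 6 lowest with opposite signs and with the larger effect in U937. That filter was not used for the rest. These were the 4 highest and 4 lowest shared effects (difference not called), up to 4 members of each list by smallest p, and 18 fixed genes. Other members, such as those named as a list's exceptions, were chosen after their values were seen. Alternatives were quantile and median scaling, limma-trend, a pseudocount of 16, no dim probe sets, the mean of a gene's probe sets, all 24 arrays, all but 1 KG-1 array (added later), a replicate block and each array left out.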

Additional observations from a re-analysis of the deposited data

Results flagged for a closer look

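The effects of R406 in the 2 lines were compared by a test of the difference itself, which 2578 genes passed with a higher and 2577 with a lower effect in MOLM-14 than in U937. Among the genes called in both lines with opposite signs, all 3 arrays of each treatment entered the tests, and the outermost were these. Lower in the difference were TK1 (-3.27), S100A9 (-3.27), RAD51AP1 (-3.18), ASF1B (-3.13), SLPI (-2.87) and CDCA3 (-2.84). Higher were CD9 (3.38), DEPTOR (2.49), IL3RA (2.11), KDM7A (1.97), CSNK2A2 (1.92) and TMEM158 (1.88). Groups of 3 arrays are too small for a test of single outlying arrays. The call of the TK1 rise in U937 was lost without U937 DMSO replicate 2 and with all 24 arrays in the fit. For IL3RA the U937 fall lies among low intensities, with 9.87 to 13.7 in U937 R406 arrays against 14.2 to 21.4 in U937 DMSO arrays. The U937 fall of CD9, whose values are given above, lies in a similar low range.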

How the results depend on the processing

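No named gene's called difference changed its sign under any alternative run. The even split of calls leaned either way, with 2452 higher and 2589 lower when dim probe sets were left out. The counts of called differences ranged over 2317 to 2691 higher and 2435 to 2607 lower when single arrays were left out, and with the replicate block they were 2539 and 2551. The replicate block gave 3583 risen and 3002 fallen genes in MOLM-14 and 675 risen and 489 fallen in U937. Same-numbered samples correlated by -0.08 to 0.10 in their deviations from the group means, with 1 of 18 pairs over 0.1, and in 6 of 18 comparisons of a sample with another group the same number correlated best, so the numbers were not taken as pairs.

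Counts that rest on U937 calls moved most. Without single arrays, 479 to 896 genes rose and 334 to 717 fell in U937, 93 to 186 fell in MOLM-14 and rose in U937, 26 to 66 did the reverse, 411 to 796 were shared in sign, 74 to 141 were called in U937 and not in MOLM-14, and 16 to 21 mitosis genes rose in U937. With all 24 arrays in the fit, 91 genes fell in MOLM-14 and rose in U937, and 4 mitosis genes rose in U937. With a pseudocount of 16, 89 genes rose in MOLM-14 and fell in U937. List counts of 2 or fewer moved by up to 3 members. With a pseudocount of 16, which by construction shrinks changes of dim genes, list medians were 0.13 for SYK and ITAM genes, 0.14 for interferon response genes and 0.03 for all genes. With the mean of a gene's probe sets, the median was 0.36 for p53 targets, and without dim probe sets -0.70 for granule proteins. Medians near 0 changed sign for STAT5 outputs, NF-kB genes and the BCL2 family, as given above, and for aryl hydrocarbon receptor targets (0.05, and -0.01 without dim probe sets), T and NK markers (0.04, and -0.03 after quantile normalization) and fibroblast and epithelial markers (0.10, and -0.01 without dim probe sets). The causes of the other moves were not tested. Of 3581 values of 171 named genes under alternatives, 3529 kept their side of the threshold, 25 gained a call and 27 lost one. The lost calls were those of SYK, CD79A, HBA1 and TRAT1, of which the last 3 are dim markers of other cell types. With 3 arrays a group, small differences near the bottom of the intensity scale are the least reliable.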
